A study of Mus musculus with 6 samples.

Results

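The C1q/TNF-related proteins (CTRPs) were examined here through the genes C1qtnf1 to C1qtnf7, in caudal arteries of mice with and without the receptor Notch3. The gene names were fixed by the family, and a probe set, the group of short probes that reports a transcript, was taken when its only gene symbol on the array platform was a member. The family was chosen by the measured change of C1qtnf3, which was among the genes that differed most between the genotypes. The values of C1qtnf3 are therefore given as a description, with no test, and the other members entered by name. The rule found 9 of 45037 probe sets, reporting 6 of the 7 genes. C1qtnf5 had no probe set of its own, because the probe set that reports it also reports Mfrp.

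The arteries, which run along the tail, were dissected from Notch3-/- and Notch3+/+ mice at 4 weeks of age, postnatal day 28. Each RNA came from a pool of arteries, with 4 mice in each of 3 Notch3-/- pools and 4, 3 and 3 mice in Notch3+/+ replicates 1, 2 and 3. Each pool was hybridised to its own Affymetrix array, and each counts as 1 sample. The labels give neither the strain nor the targeted allele, and the deletion is carried by the whole animal as far as the genotype label says.

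CTRPs are secreted proteins with a signal peptide, usually a collagen-like stalk and a globular C1q domain at the carboxyl end, the domain shared with complement C1q and the fat hormone adiponectin. They assemble into trimers and larger oligomers, circulate in blood, and are known for effects on glucose and lipid handling, inflammation and the vessel wall, in part through the AMP-activated kinase. Several are made by fat and stromal cells, so an artery dissected with its adventitia may hold more than 1 source.

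Values are log2 expression values made with RMA, so a difference of 1 is a doubling. They carry no detection call, and values of different probe sets were not set against one another. The brighter Notch3 probe set read 6.51, 6.44 and 5.87 in the Notch3-/- pools, against 9.94, 9.95 and 10.09 in the Notch3+/+ pools, which matches the labels on this transcript. Whether that probe set lies inside the deleted part of the gene was not tested. Smooth muscle markers were strong in every pool, with a mean over 6 genes of 11.01 to 11.16 in the Notch3-/- and of 10.98 to 11.33 in the Notch3+/+ pools. Arrays correlated at r between 0.978 and 0.994 across probe sets. Notch3-/- replicate 2 stood apart on the first principal component (45.2% of the variance), at 39.5 against -17.1 to 5.85 for the other arrays.

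The upstream windows of 3 members are shown. C1qtnf3 was taken because its change led to the choice of the family. C1qtnf2 and C1qtnf6 were taken because they hold the letters TGGGAA, the core that RBPJ, the DNA-binding partner of activated Notch, recognises. Each window is the 250 bases before the annotated start in the RefSeq promoter table (build GRCm38.p6), 5′ to 3′ on the strand of the gene. Capitals mark TATAAA in C1qtnf3 and TGGGAA in the other two.
C1qtnf3, chr15:10952082-10952331, plus strand: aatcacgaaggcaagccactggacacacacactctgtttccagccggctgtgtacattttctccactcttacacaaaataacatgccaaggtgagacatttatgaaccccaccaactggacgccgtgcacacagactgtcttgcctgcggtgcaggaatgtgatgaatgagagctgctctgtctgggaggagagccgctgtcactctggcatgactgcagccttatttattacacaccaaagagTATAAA
C1qtnf2, chr11:43474056-43474305, plus strand: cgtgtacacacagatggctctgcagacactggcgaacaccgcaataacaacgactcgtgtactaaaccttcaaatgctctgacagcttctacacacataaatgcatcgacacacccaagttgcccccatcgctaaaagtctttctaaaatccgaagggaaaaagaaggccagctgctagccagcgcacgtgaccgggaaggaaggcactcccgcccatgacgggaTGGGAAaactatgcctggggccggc
C1qtnf6, chr15:78529652-78529901, minus strand: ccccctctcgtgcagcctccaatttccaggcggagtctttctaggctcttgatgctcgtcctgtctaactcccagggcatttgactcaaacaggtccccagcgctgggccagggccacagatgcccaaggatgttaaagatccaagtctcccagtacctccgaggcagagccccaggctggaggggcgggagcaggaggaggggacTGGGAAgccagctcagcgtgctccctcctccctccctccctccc

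Of the 7 members, 5 matched the table: C1qtnf2, C1qtnf3, C1qtnf5, C1qtnf6 and C1qtnf7. Both strands were searched for TATAAA, for the RBPJ core TGGGAA, for the E-box with the letters CANNTG, and for the CArG box, the serum response factor element of smooth muscle genes. TATAAA was present in the window of C1qtnf3 and in 0 of the other 4 members, and in 12.4% of all 32817 promoters of the table. TGGGAA was present in 2 of the 5 windows (C1qtnf2 and C1qtnf6) and in 21.6% of all promoters. Each of the 5 windows held at least 1 E-box, as did 66.2% of all promoters, and 0 of the 5 held a CArG box, which 1.5% of all promoters held. These matches describe letters in the windows only. The marked TATAAA and TGGGAA overlapped none of the other motifs searched.

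C1qtnf3 encodes CTRP3, a secreted protein known from growing cartilage and also made by fat. Its probe set read 6.14, 6.21 and 6.53 in Notch3-/- replicates 1, 2 and 3, against 4.50, 4.53 and 4.09 in Notch3+/+ replicates 1, 2 and 3. All 3 Notch3-/- pools lay above all 3 Notch3+/+ pools, and the gap between the lowest Notch3-/- and the highest Notch3+/+ pool was 1.61, against a range of 0.39 within Notch3-/- and 0.44 within Notch3+/+ pools. The mean was 6.29 ± 0.21 in the Notch3-/- pools and 4.37 ± 0.25 in the Notch3+/+ pools (SD, n = 3 each). The difference was 1.92 (SE 0.15), or 3.78-fold. In the Notch3+/+ pools the level was close to 3.83, the level below which probe sets were not tested, and RMA compresses differences of dim probe sets. Whichever array was left out, the difference stayed between 1.78 and 1.998, and it was 1.96 without Notch3-/- replicate 2. In whole arteries, more cells that make the transcript and more transcript per cell cannot be told apart.

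**Figure D1:**
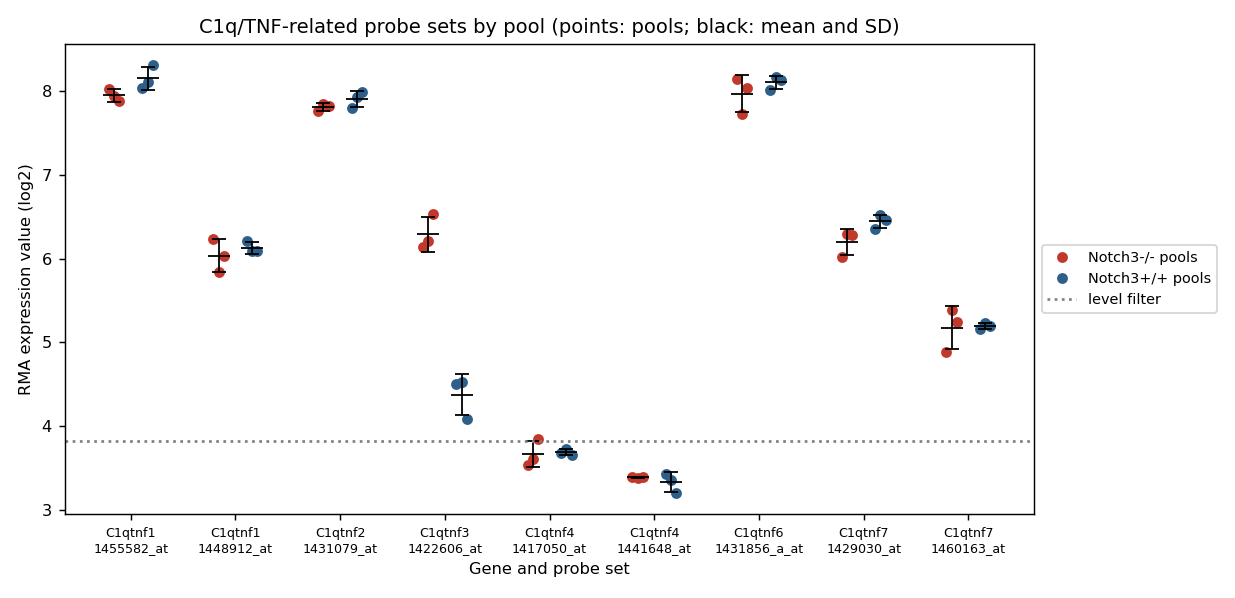
RMA expression values (log2, vertical axis) of the 9 member probe sets in the 3 Notch3-/- pools (red, left of each pair) and the 3 Notch3+/+ pools (blue, right), with the mean and SD in black and the level filter dotted. C1qtnf3 is the probe set whose groups lie far apart, at 6.14 to 6.53 in the Notch3-/- pools and 4.09 to 4.53 in the Notch3+/+ pools.

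Of the 7 member probe sets that passed the level filter, 6 report C1qtnf1, C1qtnf2, C1qtnf6 and C1qtnf7, which entered by name, and the counts are given over these. In limma 0 of the 6 probe sets passed at an adjusted p under 0.05, beside a background of 0.252% called among all 27027 probe sets tested. The unadjusted p was under 0.05 for 1 of the 6 and for 3070 of all 27027. That background also stands beside each unadjusted count given below. Counted as genes, 0 of 4 passed, beside 0.322% of 12732. Pools did not overlap in 2 of the 6, 1 each of C1qtnf1 and C1qtnf7 and both lower in Notch3-/-. Of all probe sets tested, 16.2% had pools that did not overlap, and that share also stands beside each mention of separate pools below. All 6 had a difference below 0, with adjusted p of 0.415 or more.

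C1qtnf7 had the largest difference among these. It encodes CTRP7, a family member linked in mice to glucose metabolism. The brighter probe set read 6.02, 6.29 and 6.28 in Notch3-/- pools, against 6.36, 6.52 and 6.46 in Notch3+/+ pools. Every Notch3-/- pool was the lower, with Notch3-/- replicate 1 lowest. The mean was 6.20 ± 0.15 in the Notch3-/- pools and 6.45 ± 0.08 in the Notch3+/+ pools (SD, n = 3 each), a difference of -0.25 (SE 0.10, 95% interval -0.48 to -0.02, adjusted p = 0.415 in limma). The second probe set did not repeat it. It read 4.89, 5.39 and 5.24 in Notch3-/- pools, against 5.16, 5.23 and 5.20 in Notch3+/+ pools, a difference of -0.02 (95% interval -0.32 to 0.28).

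C1qtnf1 encodes CTRP1, which is made in the vessel wall and limits platelet aggregation on collagen. Its brighter probe set read 8.03, 7.94 and 7.88 in Notch3-/- pools, against 8.04, 8.11 and 8.31 in Notch3+/+ pools. The pools did not overlap, but the nearest pair differed by little. The difference was -0.20 (SE 0.10, 95% interval -0.43 to 0.02, adjusted p = 0.483 in limma). The other C1qtnf1 probe set read 6.24, 5.84 and 6.03 in Notch3-/- pools, against 6.21, 6.09 and 6.09 in Notch3+/+ pools, and its groups overlapped. There the difference was -0.09 (95% interval -0.36 to 0.17).

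C1qtnf6 encodes CTRP6, a regulator of the alternative complement pathway. Its probe set read 8.15, 7.73 and 8.04 in Notch3-/- pools, against 8.02, 8.17 and 8.13 in Notch3+/+ pools. The groups overlapped, and Notch3-/- replicate 2 was the lowest pool. The difference was -0.13 (SE 0.12, 95% interval -0.41 to 0.14, adjusted p = 0.690 in limma), and without Notch3-/- replicate 2 it was -0.01. That array, which stood apart over the whole table, also held the lowest value of the dimmer C1qtnf1 probe set. The part of the array in these values was not tested.

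C1qtnf2 encodes CTRP2, known in mice for effects on fat metabolism. It read 7.76, 7.85 and 7.82 in Notch3-/- pools, against 7.80, 7.93 and 7.99 in Notch3+/+ pools. The groups overlapped, and the difference of -0.10 (SE 0.08, 95% interval -0.29 to 0.10, adjusted p = 0.675 in limma) had the narrowest interval among the members tested. Over C1qtnf1, C1qtnf2, C1qtnf6 and C1qtnf7, the 95% intervals reached at most 1.40-fold lower and 1.21-fold higher in Notch3-/- arteries.

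C1qtnf4 encodes CTRP4, which carries a pair of C1q domains and no collagen stalk. Both of its probe sets lay below the level filter and were not tested. The brighter read 3.54, 3.61 and 3.84 in Notch3-/- pools, against 3.68, 3.73 and 3.66 in Notch3+/+ pools. The other read 3.39, 3.38 and 3.39 in Notch3-/- pools, against 3.43, 3.36 and 3.20 in Notch3+/+ pools. Both overlapped, with differences of -0.03 and 0.06. C1qtnf5 encodes CTRP5, whose transcript is joined to that of the membrane frizzled-related protein gene Mfrp. The probe set that reports both genes read 8.26, 7.73 and 7.91 in Notch3-/- pools, against 8.05, 7.98 and 8.21 in Notch3+/+ pools, and cannot be assigned to either gene. Its groups overlapped (difference -0.11, adjusted p = 0.777 in limma).

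**Figure D2:**
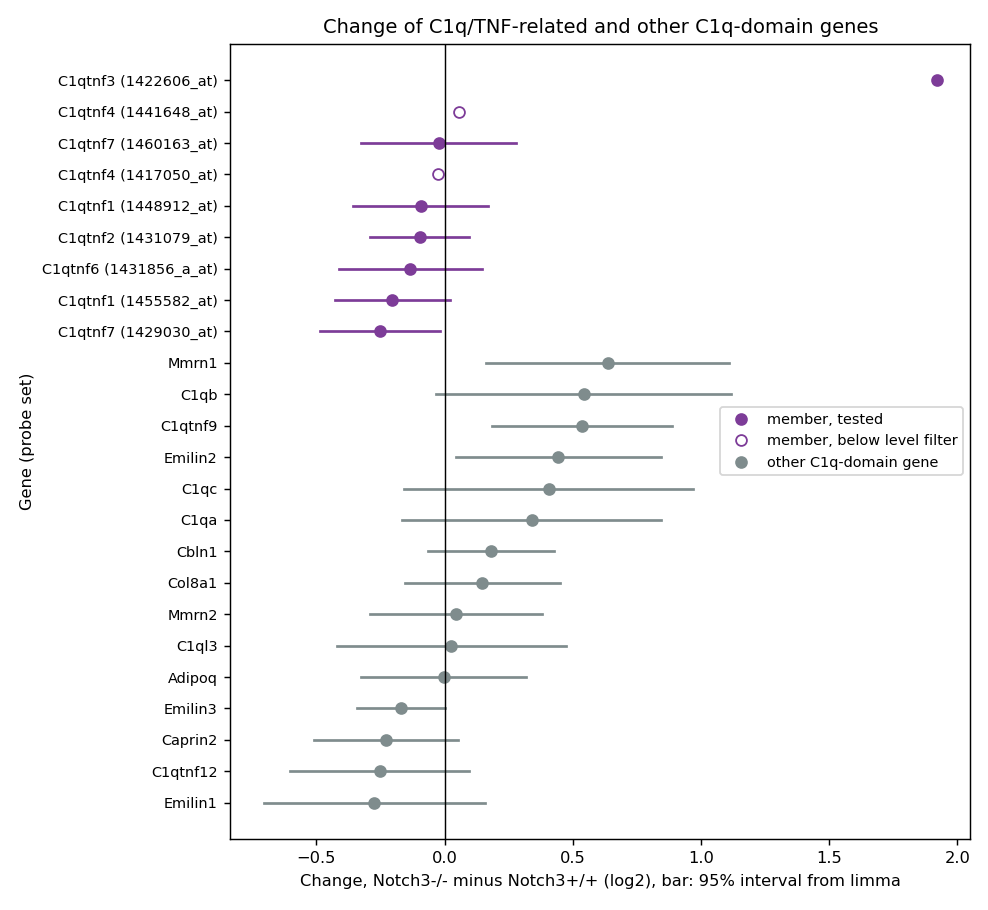
Change in Notch3-/- relative to Notch3+/+ arteries (log2, horizontal axis) of each member probe set (purple) and of 15 other C1q-domain genes tested (grey), with 95% intervals from limma. C1qtnf3 is drawn with no interval because its value led to the choice of the family, and open circles lie below the level filter. C1qtnf3 sits at 1.92, while the other member probe sets lie between -0.25 and 0.06.

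Of 25 other genes with a C1q domain, 22 had a probe set of their own and 7 of these lay below the level filter. By their brightest probe set, 0 of the 15 tested passed in limma, with 3 at an unadjusted p under 0.05. Of the 15, 10 were positive, and the median difference was 0.15, against -0.0033 over all 12732 genes tested. C1qtnf9, which encodes a close relative of adiponectin that relaxes vessels in mice, read 6.30, 6.55 and 6.35 in Notch3-/- pools, against 6.19, 5.75 and 5.65 in Notch3+/+ pools. Its pools did not overlap, although Notch3+/+ replicate 1 came near the lowest Notch3-/- pool, and the difference of 0.54 (SE 0.15, 95% interval 0.19 to 0.89) had an adjusted p of 0.266 in limma. Mmrn1, which encodes the platelet and endothelial protein multimerin 1, differed by 0.64 (adjusted p = 0.328) and Emilin2, which encodes an elastin-associated glycoprotein, by 0.44 (adjusted p = 0.403), and their pools overlapped. Mmrn1 read 4.30, 3.94 and 3.84 in Notch3+/+ pools, close to the level filter of 3.83. Another Mmrn1 probe set lay below that filter and differed by -0.04. Emilin3 differed by -0.17 (adjusted p = 0.443) with pools that did not overlap.

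Adipoq, which encodes adiponectin, and C1qtnf12, which encodes the insulin-sensitising relative adipolin, did not pass. Adipoq read 9.28, 9.55 and 9.02 in Notch3-/- pools, against 9.37, 9.31 and 9.18 in Notch3+/+ pools, a difference of -0.0033 (95% interval -0.32 to 0.32). The brightest of 4 C1qtnf12 probe sets differed by -0.25 (adjusted p = 0.559), with Notch3-/- replicate 2 lowest at 7.99, and the 4 probe sets ran from -0.25 to 0.05.

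The complement genes C1qa, C1qb and C1qc, which encode the chains of C1q itself, differed by 0.34, 0.54 and 0.41 by their brightest probe sets, with pools that overlapped. C1qb has 3 probe sets, and a second one rose by 1.07 (SE 0.12, adjusted p = 0.0227 in limma, and 0.0472 to 0.169 with an array left out, where the call held only without Notch3-/- replicate 1). It read 8.16, 8.44 and 8.34 in Notch3-/- pools, against 7.36, 7.36 and 7.01 in Notch3+/+ pools. The third differed by 0.72 (adjusted p = 0.251) and did not pass, although its pools did not overlap. Macrophages are a main source of C1q, and all 6 macrophage markers were positive, with a median of 0.45. Their mean level was 7.43 to 7.90 in the Notch3-/- pools and 6.81 to 7.51 in the Notch3+/+ pools, and 0 of 6 passed in limma, with 4 at an unadjusted p under 0.05 (Cd163 at 0.58, Adgre1 at 0.50, Mrc1 at 0.51 and Csf1r at 0.40). The part of these markers in the C1q values was not tested.

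Receptors, signalling partners and folding enzymes did not pass either. Among genes reported to bind C1q/TNF-related proteins or adiponectin, 0 of 4 tested passed in limma, and the unadjusted p was under 0.05 for 0 of them. Differences were 0.06 for Adipor1 and -0.11 for Adipor2, the adiponectin receptors, -0.13 for Cdh13, the adiponectin-binding T-cadherin, and -0.05 for Lamp1, a lysosomal membrane protein reported to bind CTRP3. Adgrb3 and Rxfp1 lay below the level filter, and Mfrp has the probe set shared with C1qtnf5. Of 6 AMP-activated kinase subunits tested, 0 passed in limma and 1 reached an unadjusted p under 0.05. Differences were -0.24 for the regulatory subunit gene Prkag2 (adjusted p = 0.421), -0.28 for the catalytic subunit gene Prkaa2, 0.15 for Prkaa1 and -0.10 for Prkag1. A less bright Prkag1 probe set went the other way, at 0.24 (adjusted p = 0.403 in limma) with separate pools. Of 11 genes for the hydroxylation, glycosylation and folding of collagen-like stalks, 0 passed in limma and 0 reached an unadjusted p under 0.05. Differences were 0.13 for Plod2, -0.14 for Plod3 and -0.10 for Plod1, all lysyl hydroxylase genes, and -0.08 for the prolyl hydroxylase gene P4ha1. The medians of these 3 lists were -0.08, -0.10 and -0.05.

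The genes whose pattern over the 6 pools was most like that of C1qtnf3 are given as a description, with Pearson's r over 6 pools that fall into 2 genotypes. Among 818 genes with an SD of at least 0.3, the highest was Dpt, which encodes the matrix protein dermatopontin (r = 0.995), followed by the LIM domain gene Fhl2 (0.992), Ism1, which encodes the secreted protein isthmin 1 (0.992), the desmin gene Des (0.991) and the proteoglycan gene Epyc (0.984). Differences were 0.58 for Dpt, 0.63 for Fhl2, 0.71 for Ism1, 2.01 for Des and 0.87 for Epyc. Notch3-/- replicate 3 was the highest pool in C1qtnf3 and in each of the 5, and Notch3+/+ replicate 3 was the lowest in C1qtnf3 and in each of them but Epyc. The 5 were picked for likeness over the same pools, so shared highest and lowest pools follow in part from that choice.

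**Figure D3:**
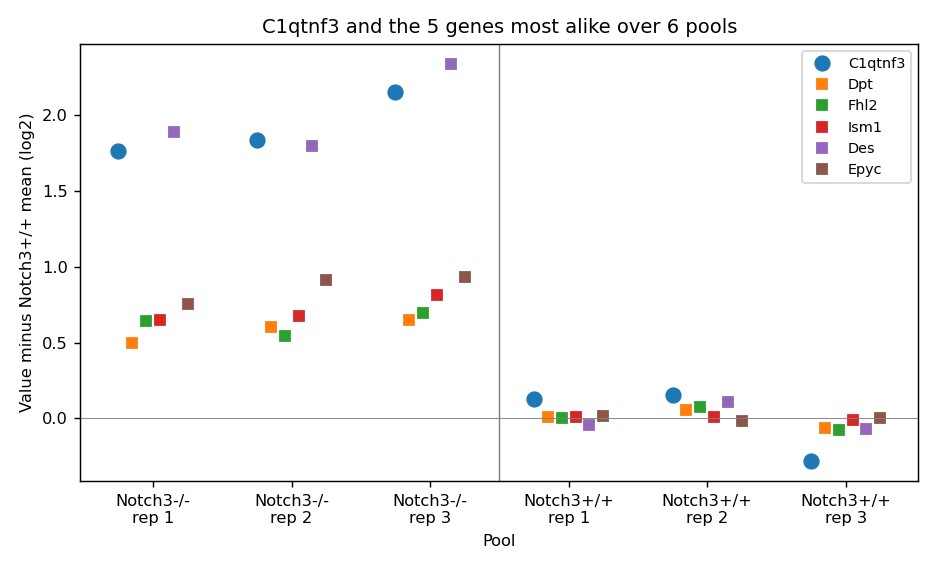
Values minus the Notch3+/+ mean (log2, vertical axis) in each pool for C1qtnf3 (large circles) and the 5 genes most like it by Pearson's r over the 6 pools (squares). C1qtnf3 and Des, with differences of 1.92 and 2.01, lie well above Dpt, Fhl2, Ism1 and Epyc in the Notch3-/- pools.

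The mean level of 8 markers of fibroblasts, cells that hold much of the adventitia, separated the genotypes. All 8 were positive, with a median of 0.19, 1 passed (Dpt, adjusted p = 0.0499 in limma), and their mean level was 10.68 to 10.81 in the Notch3-/- pools and 10.37 to 10.56 in the Notch3+/+ pools. The Dpt call was lost whenever an array was omitted, with adjusted p of 0.0684 without Notch3-/- replicate 1 and up to 0.261 without Notch3-/- replicate 3. Within Notch3+/+ arteries, replicate 3 was lowest in both C1qtnf3 and the fibroblast markers. It was also lowest in the means of the macrophage, chondrocyte, adipocyte and skeletal muscle lists. Within Notch3-/- arteries, replicate 1 was lowest in C1qtnf3 and replicate 2 in the fibroblast markers. Of the 8, 4 had an unadjusted p under 0.05 and separate pools, namely Dpt (0.58), Pi16 (0.58), Mfap5 (0.35) and Cd34 (0.22). The other 4 overlapped, with differences of 0.15 for Pdgfra, 0.14 for Clec3b, 0.04 for Lum and 0.01 for Dcn. Among all probe sets tested, 16.2% had separate pools, and no such share was taken for means of lists. The mean level of 5 tendon markers also separated the genotypes, at 7.25 to 7.40 in the Notch3-/- pools and 7.01 to 7.19 in the Notch3+/+ pools. Of the 4 tested, 0 passed in limma, with 2 at an unadjusted p under 0.05. These were Thbs4, a thrombospondin gene (0.77), and Fmod, which encodes the proteoglycan fibromodulin (0.41), both with separate pools, while Tnmd (-0.12) and Mkx (-0.04) overlapped. Another Fmod probe set, less bright, differed by 0.12 with pools that overlapped. The part of either marker list in the C1qtnf3 difference was not tested.

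Chondrocyte markers were examined because C1qtnf3 is known from cartilage, and their mean level overlapped between genotypes. It was 4.05 to 4.26 in the Notch3-/- pools and 4.00 to 4.29 in the Notch3+/+ pools over 8 genes. The cartilage genes Matn1, Matn3, Cnmd and Hapln1 lay below the level filter and were not tested. Among them, Matn3 (0.24) and Cnmd (0.08) were higher and Matn1 (-0.11) lower in Notch3-/-, with separate pools, and Hapln1 (0.04) overlapped. Of the other 4 chondrocyte markers, 0 passed in limma, with 0 at an unadjusted p under 0.05. Col2a1 read 5.54 ± 0.08 in Notch3-/- and 5.37 ± 0.10 in Notch3+/+ arteries, and Acan 8.31 ± 0.29 in Notch3-/- and 8.37 ± 0.76 in Notch3+/+ arteries (SD, n = 3 each). Epyc, 1 of the 5 genes picked above for likeness to C1qtnf3, was not on this list. It differed by 0.87, with separate pools. Adipocyte markers had a median difference of -0.11 over 5 tested genes, of which 0 passed in limma and 1 reached an unadjusted p under 0.05. Lep lay below the level filter, and Plin1 and Cfd had no probe set of their own. Mean levels over the 5 and Lep were 7.05 to 7.36 in the Notch3-/- pools and 7.29 to 7.39 in the Notch3+/+ pools. Smooth muscle, endothelial and skeletal muscle markers had medians of -0.0083, -0.17 and -0.21, and 0 of 6, 0 of 6 and 0 of 5 passed in limma, with 2, 1 and 1 at an unadjusted p under 0.05. The smooth muscle genes differed in both directions, with 0.51 for the calponin gene Cnn1 (adjusted p = 0.138) and -0.58 for the smoothelin gene Smtn (adjusted p = 0.318), both with separate pools. Among the others, the endothelial gene Pecam1 differed by -0.47 (adjusted p = 0.416 in limma) and the skeletal muscle gene Pvalb by -0.63 (adjusted p = 0.432 in limma). Of the remaining endothelial genes, Tie1 (-0.30), Cdh5 (-0.29) and Kdr (-0.05) were lower in Notch3-/-. Emcn (0.20) and Tek (0.09, with separate pools) were higher. The remaining skeletal muscle genes tested ran from -0.23 to -0.19.

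**Figure D4:**
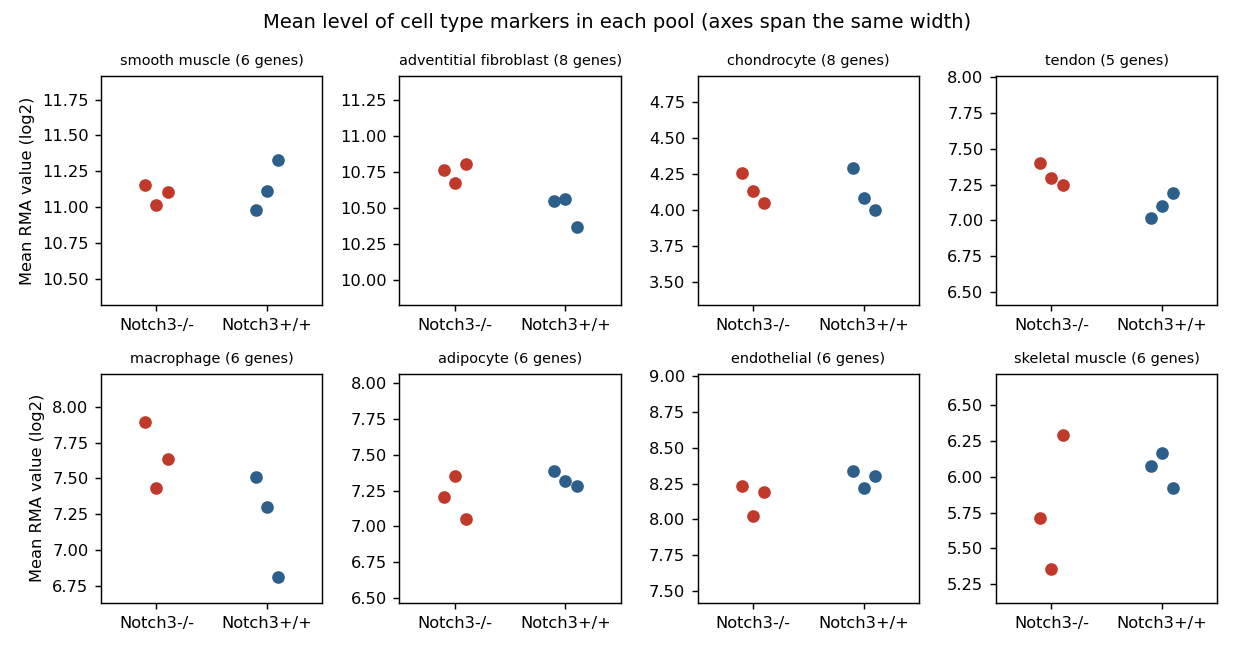
Mean RMA value (log2, vertical axis, each panel spanning the same width) of 8 lists of cell type markers in the 3 Notch3-/- pools (red, left) and the 3 Notch3+/+ pools (blue, right). The means of the fibroblast and tendon lists separate the genotypes (fibroblast means 10.68 to 10.81 in the Notch3-/- pools and 10.37 to 10.56 in the Notch3+/+ pools), while the chondrocyte means overlap.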

How the data were processed

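Total RNA was extracted with Trizol and 2.5 µg was labelled with biotin, per the labels' protocols. The authors deposited 1 log2 value per probe set and array, computed with RMA (background correction, quantile normalization and summary of probes), per the submitters' processing notes. The RMA version is not given in the sources used here. That the scale is log2 follows from the range of 1.38 to 13.38. Of 45101 probe sets, 64 controls were left out. The platform annotation gave 34945 probe sets 1 symbol, updated through RefSeq where 34741 matched. Probe sets whose mean over 6 arrays lay below the 40th percentile (3.83) were not tested. The remaining 27027 were fitted with limma 3.58.1 in R 4.3.3 (lmFit, eBayes, genotype as the only term), with two-sided p-values adjusted by Benjamini-Hochberg over all of them, a threshold of 0.05 and 95% intervals. The fit was tested on simulated data. A gene was represented by its brightest probe set.

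The members and all gene lists were chosen with earlier results of these data known. Every member probe set was named, with called genes and up to 4 genes of the smallest unadjusted p in each list of relatives and pathway genes, and the 5 genes most like C1qtnf3. Other genes, among them the cell type markers, were named after their values were seen. Alternatives were the level filter, the variance model, further normalization, array weights, the replicate block, the probe sets used, the threshold and each array left out. With 3 arrays per genotype, precision is limited by their number. No batch or scan day is given, so none was fitted.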

Additional observations from a re-analysis of the deposited data

How the results depend on the processing

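The C1qtnf3 difference of 1.92 ran from 1.91 to 2.003 over 9 other settings and from 1.78 to 1.998 with an array left out. The level filter, variance model and replicate block cannot move a difference of group means here, so it stayed at 1.92 under them. With an array left out, C1qtnf1 ran from -0.26 to -0.125, C1qtnf2 from -0.15 to -0.055, C1qtnf6 from -0.22 to -0.01 and C1qtnf7 from -0.30 to -0.16, none of them called, with adjusted p of 0.379 or more. Under the other settings the lowest adjusted p of these 4 genes was 0.124, for C1qtnf7 with array weights, and none changed sign. The mean of the C1qtnf4 probe sets differed by 0.015. The count of 68 called probe sets was 978 with array weights and 142 at a threshold of 0.1. It ran from 13 to 62 with an array left out: 17 and 37 when Notch3-/- replicate 3 or 2 was omitted, and 13 and 23 when Notch3+/+ replicate 2 or 3 was omitted, each with fewer samples. Of the relatives and pathway genes, 0 were called, and 0 with any array left out. With array weights 2 were called, Mmrn1 (0.89, adjusted p = 0.0311) and C1qtnf9 (0.55, adjusted p = 0.0393), and 1, C1qb, when any probe set of a gene counted. The cause was not tested. Same-numbered pools deviated together with correlations of 0.24, 0.05 and -0.07, so the numbers were not taken as pairs. With the replicate block 57 probe sets were called. C1qtnf4 lay below the level filter, where values this dim limit what can be seen. It entered the fit that had no filter, with an adjusted p of 0.940.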

Other observations

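The genes beside C1qtnf3 on its chromosome, taken after its values were seen as the 5 nearest tested protein-coding genes on each side in the RefSeq table (GRCm38.p6), did not pass. Of these 10 neighbours, 0 passed in limma, with 2 at an unadjusted p under 0.05. Amacr, a racemase of branched-chain fatty acid breakdown and the next gene after C1qtnf3, read 5.63, 5.62 and 5.48 in Notch3-/- pools, against 5.48, 5.49 and 5.16 in Notch3+/+ pools, a difference of 0.20 (95% interval -0.06 to 0.46, adjusted p = 0.539). Rai14, which encodes an actin-associated ankyrin repeat protein and lies on the other side, differed by 0.24 (95% interval -0.02 to 0.50, adjusted p = 0.478). The largest difference among the 10 was that of Npr3, the natriuretic peptide clearance receptor gene, at 0.47 (adjusted p = 0.372), with pools that did not overlap. The metalloproteinase gene Adamts12 differed by 0.24 (adjusted p = 0.408), also with separate pools.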
